A study of Homo sapiens with 23 samples.

Results

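Late Src-driven change was read as the difference between 24 h and 4 h of tamoxifen (TAM) in MCF10A-ER-Src cells that carried the control siRNA. The comparison holds 6 of the 23 expression arrays of the series, 3 with the group label siNEG_TAM_24hr and 3 with siNEG_TAM_04hr, taken by their titles and not by any measured value. Both groups were grown for 48 h over 25 nM of a non-targeting siRNA pool (siNEG) and then received 1 μM 4-hydroxytamoxifen, for 24 h or for 4 h. The same cells given the vehicle ethanol (EtOH) for 24 h or 4 h (6 arrays) and cells given an siRNA pool against STAT3 (siSTAT3) with TAM for 24 h or 4 h (5 arrays, 2 of them at 24 h) were used to show where the TAM time change differed. All groups share the medium, which contains charcoal-stripped horse serum, EGF, hydrocortisone, cholera toxin and insulin. The 24 h arrays also come from cells that spent longer in culture, so duration of Src activity and time in the dish cannot be told apart within the TAM arrays, and the EtOH pair is the only measure of culture time.

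MCF-10A is a non-transformed human mammary epithelial line with basal features. In ER-Src the v-Src kinase is joined to the part of the estrogen receptor that binds ligand, so that TAM switches the kinase on. Src phosphorylates STAT3 and is linked to NF-κB, IL6 and AP-1, a dimer of FOS and JUN proteins downstream of ERK. Sustained Src activity is known to loosen cell junctions and to alter adhesion to the matrix.

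Values are MAS5 signals in linear units, 1 per probe set, scaled so that the trimmed mean of each array is 500. The 6 arrays had medians between 73.5 and 81.1 units, with 44.6% to 46% of their probe sets over 100 units. The 3′ to 5′ signal ratio was 1.31 to 1.35 for ACTB and 0.92 to 0.966 for GAPDH. Over 27612 probe sets, pairs of arrays of different times lay 0.424 to 0.465 apart on the log2 scale, as the mean absolute difference, and pairs of the same time 0.208 to 0.251 apart. STAT3 gave 6753, 5955 and 5650.1 units at 24 h, against 5626, 5974 and 5128 units at 4 h in siNEG cells, and 441 and 359 units at 24 h and 475, 406 and 393 units at 4 h in siSTAT3 cells. The basal keratins KRT5 (15224, 13855 and 14281 units at 24 h, against 16277, 18817 and 16058 units at 4 h) and KRT14 (17647, 18842 and 17411 units at 24 h, against 18481, 20390 and 17551 units at 4 h) were abundant on all 6 arrays, and all 8 measured basal mammary markers exceeded 100 units. Of 12 measured luminal mammary markers 8 exceeded 100 units as well. In each of these lists 1 gene was called higher and 2 lower at 24 h. Of 10 immune cell markers 1 exceeded 100 units and none was called, with a summed signal of 1119 to 1136 units at 24 h and 1004 to 1123 units at 4 h. PTPRC, the pan-leukocyte marker, stayed at 21.3, 50.4 and 21.2 units at 24 h, against 56.1, 51.1 and 23.3 units at 4 h.

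In the text a log2 difference is the mean log2 signal at 24 h minus that at 4 h, and a gene is called, or said to rise or fall, when limma gave p under 1e-04 and an absolute log2 difference over 0.5 on its representative probe set. By this rule 935 of 19775 genes rose between 4 h and 24 h of TAM (4.73% of those tested) and 776 fell (3.92%). These shares are the reference for the TAM counts of each gene list below. Of the risers 399 changed more than 2-fold, 103 more than 4-fold and 43 more than 8-fold, against 265, 57 and 17 of the genes that fell. With the median log2 signal of each array subtracted, the calls were 710 higher and 921 lower, so the share of higher calls was 43.5% instead of 54.6%. That setting moved the median log2 difference of all genes by -0.0814, and which direction held more genes depended on it. With EtOH the same interval gave 381 higher calls (1.93%) and 385 lower calls (1.95%). In siSTAT3 cells with TAM it gave 672 higher (3.40%) and 359 lower (1.82%).

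The TAM time change itself differed from the EtOH time change in 309 genes upward (1.56%) and 224 downward (1.13%), tested as the difference of both differences. It differed from the TAM time change of siSTAT3 cells in 213 genes upward (1.08%) and 261 downward (1.32%). Genes called with TAM and with EtOH, which share no arrays, overlapped in 227 higher genes, 24.3% of the TAM list and 59.6% of the EtOH list, and in 261 lower genes, 33.6% and 67.8% of these lists. Called in opposite directions were 7 genes that rose with TAM and 5 that fell. The scatter of both time changes sets each gene's TAM value against its EtOH value.

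**Figure D1:**
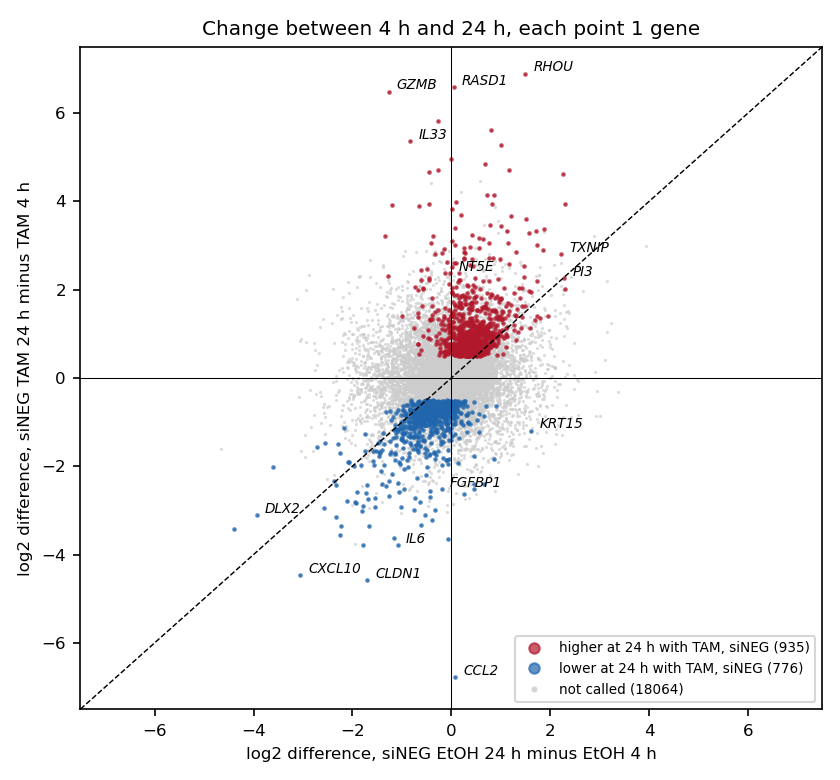
Each point is 1 of 19775 genes, with the log2 difference between 24 h and 4 h for TAM on the vertical axis and for EtOH on the horizontal axis, both in siNEG cells, and a dashed line where both are equal. The 935 genes that rose and the 776 that fell with TAM are coloured. RASD1 and GZMB lie far above the line, and KRT15 fell with TAM and rose with EtOH. CCL2 lies far below the line, but its difference from EtOH was not called.

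Several secreted inflammatory signals were lower at 24 h. Of 28 measured cytokine and chemokine genes 12 fell and 3 rose, with a median log2 difference of -0.86 against 0.04 over all genes. With EtOH 6 fell and none rose (median -0.49), and the TAM minus EtOH difference was called lower in 6 and higher in 3 of the genes (median -0.14). IL6, the cytokine that activates STAT3 through gp130, had 180.3, 178 and 204 units at 24 h, against 1749.8, 3197 and 3069.5 units at 4 h. It fell 13.8-fold (log2 difference -3.78, SE 0.271, limma adjusted p = 3.6e-08), and no array at 24 h reached any array at 4 h. Its promoter is printed because a match to the NF-κB motif GGNNTTTCC, in capitals, begins at base -72 before the start, in the window chr7:22726950-22727249 on the plus strand (GRCh38.p14, RefSeq).
IL6: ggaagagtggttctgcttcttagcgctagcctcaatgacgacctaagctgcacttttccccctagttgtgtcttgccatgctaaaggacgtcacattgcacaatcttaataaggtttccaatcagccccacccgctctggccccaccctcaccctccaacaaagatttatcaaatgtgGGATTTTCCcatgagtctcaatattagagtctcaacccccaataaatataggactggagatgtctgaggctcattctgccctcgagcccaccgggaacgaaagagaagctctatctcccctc

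CCL2, the monocyte chemoattractant MCP-1, had 54.1, 12.7 and 21.7 units at 24 h, against 2354, 2898 and 2842 units at 4 h. Its fall was 109-fold (log2 difference -6.77, SE 1.22, limma adjusted p = 7.0e-04), but the EtOH arrays at 24 h spread over 53.9, 45.3 and 1.46 units, and the call was lost in 5 of the 6 fits without 1 TAM array, with adjusted p up to 0.005. LIF, an IL6 family cytokine, had 106, 97.3 and 94.2 units at 24 h, against 791, 1169 and 1128 units at 4 h (log2 difference -3.36, SE 0.152, limma adjusted p = 2.0e-10). CXCL10, an interferon-induced T cell chemokine, had 19, 11.7 and 6.93 units at 24 h, against 204, 274 and 295 units at 4 h (log2 difference -4.46, SE 0.471, limma adjusted p = 3.2e-06). All 3 of these genes were lower on every 24 h array than on every 4 h array. The difference from the EtOH time change was called for LIF (-1.12), but not for CCL2 or CXCL10. TNF and IL1B, chosen here after their values were seen, fell too, with log2 differences of -2.91 and -1.90.

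IL33 went the other way. This alarmin of the IL1 family had 1573, 1631 and 1913 units at 24 h, against 35.8, 36.3 and 54.1 units at 4 h (log2 difference 5.36, SE 0.596, limma adjusted p = 5.5e-06), while its EtOH arrays held 4.7, 31.7 and 22.7 units at 24 h and 17.8, 31.8 and 34 units at 4 h. The platelet chemokine PPBP was outside the list and had 662, 879 and 500.3 units at 24 h, against 17.4, 38.6 and 3.71 units at 4 h. Its log2 difference was 5.61 with an SE of 0.864, an imprecise value because the 4 h signals were near the low end of the scale. Of 19 measured NF-κB pathway genes 4 fell and none rose (median log2 difference -0.14), against 3 and none with EtOH (median -0.23): TNFAIP2 (-1.78), the ubiquitin-editing inhibitor TNFAIP3 (-1.42), CD83 (-0.82) and the p105/p50 gene NFKB1 (-0.61). TNFAIP3 fell with EtOH as well (-1.45), and TNFAIP2 fell more with TAM than with EtOH (difference -1.28, limma adjusted p = 2.9e-04). Without 1 TAM array 2 or 3 genes of the list fell. CD83 lost its call in 4 of the 6 fits, and NFKB1 lost it in every one (log2 differences -0.66 to -0.51).

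**Figure D2:**
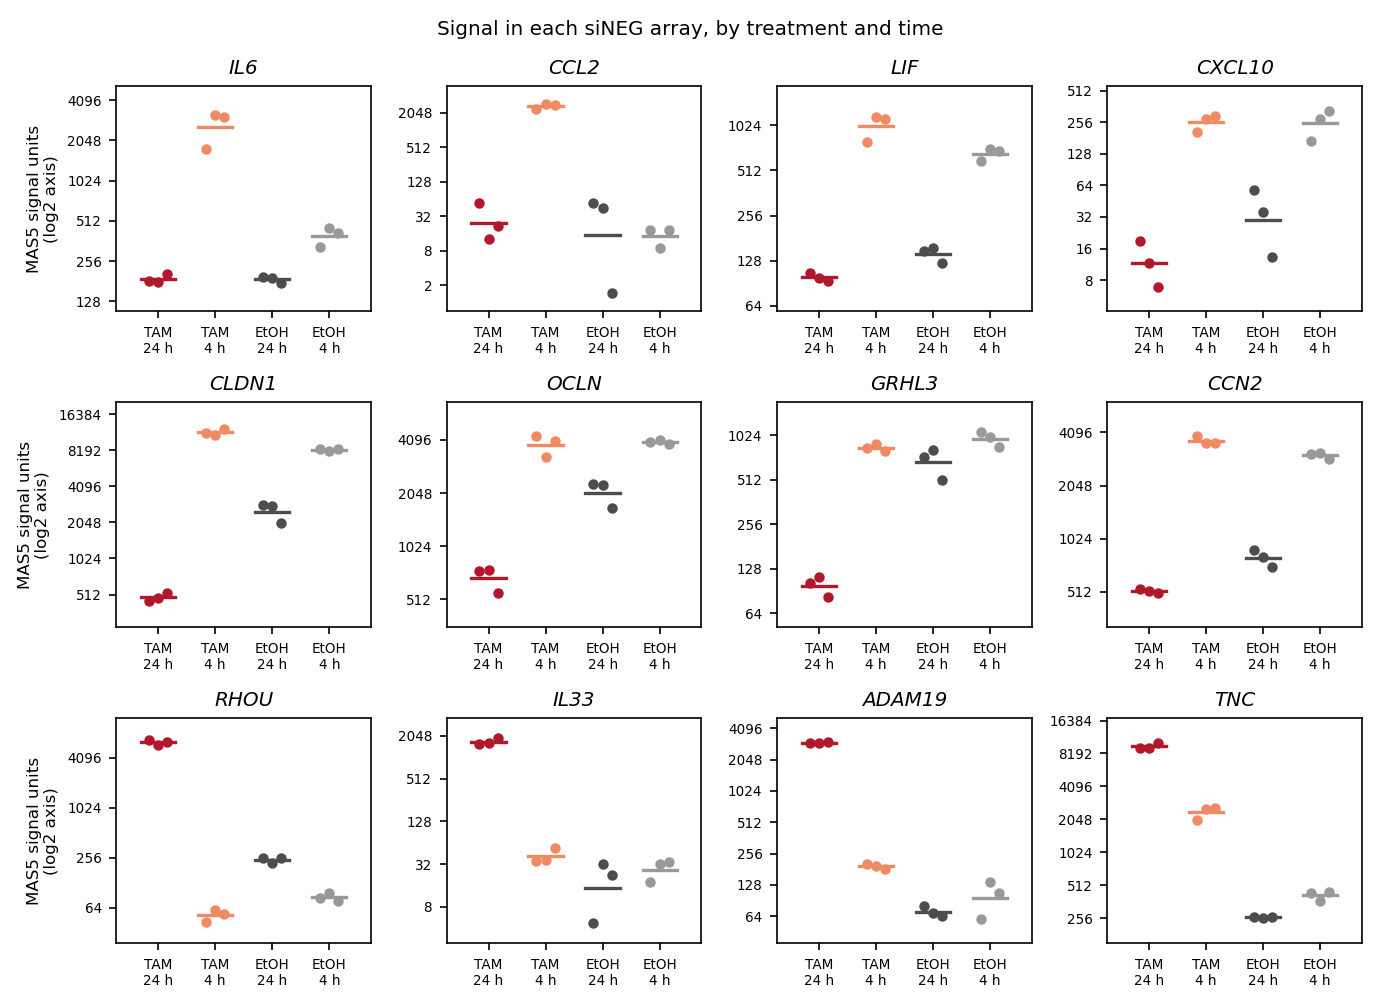
MAS5 signal (log2 axis, units) of 12 genes on each siNEG array, in the order TAM 24 h, TAM 4 h, EtOH 24 h and EtOH 4 h, with 3 arrays a group as points and the geometric mean as a bar. IL6 and CCL2 are high only with TAM at 4 h, CLDN1 and OCLN fall with both treatments and further with TAM, and IL33, ADAM19 and RHOU are high only with TAM at 24 h.

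Some genes that STAT3 is known to drive rose, among them FGL1 and SERPINA3. A list of 31 measured acute-phase genes and other STAT3 targets held 10 risers and no gene that fell (median log2 difference 0.22, with 2 lower calls when any probe set of a gene counted). With EtOH 2 were higher and none lower (median 0.04), and in siSTAT3 cells 4 were higher and 2 lower (median 0.28). The TAM minus EtOH difference was called higher in 5 and lower in 2 of the list. The siNEG minus siSTAT3 difference was called higher in 4 of the 31 and lower in none. FGL1, a fibrinogen-related liver protein and ligand of LAG3, had 2860.4, 2879.5 and 3655 units at 24 h, against 343, 272 and 402 units at 4 h (log2 difference 3.22, SE 0.205, limma adjusted p = 8.6e-09). SERPINA3, the acute-phase inhibitor antichymotrypsin, had 11097, 10068 and 11125 units at 24 h, against 3123, 3309 and 3378 units at 4 h (log2 difference 1.72, SE 0.107, limma adjusted p = 6.6e-09). Neither gene's groups overlapped, and neither was called in siSTAT3 cells, where the log2 differences were 0.70 and -0.05.

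SOCS1, a feedback inhibitor of JAK kinases, had 236, 178 and 236 units at 24 h, against 70.8, 71.5 and 66.3 units at 4 h (log2 difference 1.63, SE 0.195, limma adjusted p = 1.3e-05). LRG1, a leucine-rich glycoprotein of the acute phase, had 324, 308 and 375 units at 24 h, against 80.9, 66.9 and 92.4 units at 4 h (log2 difference 2.07, SE 0.335, limma adjusted p = 2.6e-04). Both were higher on all 24 h arrays, and LRG1 lost its call in 2 of 6 fits without 1 TAM array. The other probe sets of SOCS1 were not called (log2 differences 0.40, 0.47 and -0.18). CRP, the C-reactive protein, was not on the list and had 169, 144 and 155 units at 24 h, against 8.27, 10.8 and 2.51 units at 4 h, and its fold of 25.6 rests on 4 h signals of a few units. STAT3 RNA itself was not called (log2 difference 0.13). The LRG1 promoter (chr19:4539987-4540286, minus strand, GRCh38.p14) is shown for the STAT motif TTCNNNGAA, in capitals, whose match begins at base -162.
LRG1: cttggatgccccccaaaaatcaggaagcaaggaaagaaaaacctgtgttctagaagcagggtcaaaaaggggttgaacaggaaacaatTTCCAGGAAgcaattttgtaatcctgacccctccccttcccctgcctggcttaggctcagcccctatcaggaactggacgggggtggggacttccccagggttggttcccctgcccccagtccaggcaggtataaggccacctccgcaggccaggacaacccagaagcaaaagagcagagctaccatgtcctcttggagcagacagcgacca

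Immediate early genes split. Of 24 measured AP-1 and immediate early genes 5 rose and 2 fell (median 0.15), against 1 and 4 with EtOH (median -0.21) and none and 4 in siSTAT3 cells. The TAM minus EtOH difference was called higher in 6 and lower in 1 (median 0.49). The siNEG minus siSTAT3 difference was called higher in 7 and lower in 1. EGR1, a zinc finger factor induced by ERK, had 4553, 4362 and 5146 units at 24 h, against 1578, 1464 and 1762 units at 4 h (log2 difference 1.55, SE 0.0816, limma adjusted p = 9.1e-10). FOS had 4427, 4308 and 4378 units at 24 h, against 2114, 2141 and 2104 units at 4 h (log2 difference 1.04, SE 0.110, limma adjusted p = 3.2e-06), against 1057, 1054 and 1071 units at 24 h and 912, 855 and 997 units at 4 h of EtOH. FOS stood above both EtOH groups at each time, and its time change exceeded that with EtOH (difference 0.84, limma adjusted p = 0.0041) and that of siSTAT3 cells (difference 0.87, adjusted p = 0.0055). SRF, the serum response factor that with ERK drives such genes, fell (-1.68), as did the epithelial Krüppel-like factor KLF4 (-1.29). The difference from EtOH was called for KLF4 (-0.85) and not for SRF. Of 18 ERK feedback genes 3 rose and none fell (median 0.26, with 1 lower call after quantile or median scaling): DUSP6, a phosphatase of ERK, had 11092, 10334 and 12598 units at 24 h, against 3604, 3216 and 3693 units at 4 h (log2 difference 1.69, SE 0.117, limma adjusted p = 2.4e-08), and DUSP4 (0.83) and the ETS factor ETV5 (0.87) rose less.

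Mitotic genes that changed were higher at 24 h. Of 35 measured mitosis genes 14 rose and none fell (median 0.36), against 7 and none with EtOH and 14 and none in siSTAT3 cells. KIF14, a kinesin of cytokinesis, had 6616, 6442 and 6702 units at 24 h, against 2817, 2645 and 2834 units at 4 h (log2 difference 1.25, SE 0.0797, limma adjusted p = 8.7e-09), and CDC25C, the phosphatase that activates CDK1, had 1398, 1399 and 1654 units at 24 h, against 583, 629.6 and 459.6 units at 4 h (log2 difference 1.42, SE 0.128, limma adjusted p = 5.5e-07). MKI67, the gene of the Ki-67 antigen, had 3333, 3551 and 3544 units at 24 h, against 2065, 1822 and 1912 units at 4 h (log2 difference 0.85, SE 0.0803, limma adjusted p = 9.3e-07). All 3 were higher on each 24 h array. Among these, KIF14 alone had a time change above that with EtOH by the call rule (difference 0.83). For MKI67 the difference was 0.35 (limma adjusted p = 0.12) and for CDC25C 0.41 (limma adjusted p = 0.3). Another MKI67 probe set rose too (log2 difference 0.86). The remaining MKI67 probe sets averaged 638 and 398 units at 24 h, against 603 and 380 units at 4 h. They were not called (log2 differences 0.09 and 0.07), so the MKI67 rise depended on the probe set read. The MKI67 promoter (chr10:128126374-128126673, minus strand, GRCh38.p14) carries 2 matches to the cell cycle homology region motif TTTGAA, in capitals, at bases -47 and -29.
MKI67: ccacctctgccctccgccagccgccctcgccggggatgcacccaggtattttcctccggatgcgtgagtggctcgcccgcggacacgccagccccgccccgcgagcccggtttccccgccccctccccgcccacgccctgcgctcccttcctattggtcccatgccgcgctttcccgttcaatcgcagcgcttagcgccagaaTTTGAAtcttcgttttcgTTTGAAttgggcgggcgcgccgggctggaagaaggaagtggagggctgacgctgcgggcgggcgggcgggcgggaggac

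Replication genes were called about as often as all tested genes, of which 4.73% rose and 3.92% fell with TAM. Of 40 measured DNA replication genes 3 rose (the primase PRIM1, the kinase CDC7 and the licensing factor CDT1, 0.97, 0.77 and 0.75) and 1 fell (the phosphatase CDC25A, -0.997), with a median log2 difference of 0.04 equal to that of all genes. With EtOH 5 rose and none fell (median 0.29), and no gene of the list was called in the TAM minus EtOH difference (median -0.19). Of 14 D cyclins and inhibitors of cyclin-dependent kinases 1 rose and 2 fell. CDKN2D, the p19 inhibitor of CDK4 and CDK6, had 272, 281 and 294 units at 24 h, against 86.4, 93.5 and 138 units at 4 h (log2 difference 1.44, SE 0.192, limma adjusted p = 3.7e-05). CCND2, a D cyclin, had 1748, 1958 and 1600.4 units at 24 h, against 3166, 3096 and 3086 units at 4 h (log2 difference -0.82, SE 0.0801, limma adjusted p = 1.3e-06), and CDKN1C, the p57 inhibitor, fell too (-0.99).

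Ribosome biogenesis genes that changed were lower at 24 h. Of 20 measured genes 9 fell and none rose (median -0.52), against 3 and none with EtOH, and none of the 20 differed between treatments. The largest of these falls belonged to RRS1 (2129, 2136 and 1791 units at 24 h, against 5306, 4925 and 5058 units at 4 h, log2 difference -1.34, SE 0.110, limma adjusted p = 1.8e-07), an assembly factor of the large subunit. RRP12 (-1.13), the RNA polymerase I subunit POLR1A (-1.10) and the methyltransferase NOP2 (-0.73) followed. The other probe sets of RRP12 (-0.995 to -0.17) and of POLR1A (-0.22 and 0.09) were not called.

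Most epithelial junction genes that changed were lower at 24 h. Of 26 measured junction genes 10 fell and 1 rose (median -0.47), against 3 and 1 with EtOH and 6 and 1 in siSTAT3 cells. CLDN1, a claudin of tight junction strands, had 454, 483 and 529 units at 24 h, against 11360, 10993 and 12465 units at 4 h, a 23.8-fold fall (log2 difference -4.57, SE 0.121, limma adjusted p = 6.2e-13). With EtOH it stood at 2871, 2796 and 2008 units at 24 h and 8361, 8025 and 8358 units at 4 h, so it fell in both and further with TAM (difference -2.86, limma adjusted p = 5.2e-08). OCLN, the tight junction protein occludin, had 738, 754 and 555 units at 24 h, against 4293, 3287 and 4029.6 units at 4 h (log2 difference -2.51, SE 0.140, limma adjusted p = 1.7e-09), with a difference from EtOH of -1.56.

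The desmosomal plakin PPL (459, 556 and 432 units at 24 h, against 1735, 1812 and 1535 units at 4 h, log2 difference -1.82, SE 0.121, limma adjusted p = 1.4e-08) and the tight junction adaptor CGN (76.9, 61.8 and 60.4 units at 24 h, against 208, 187 and 237 units at 4 h, log2 difference -1.67, SE 0.145, limma adjusted p = 3.7e-07) fell with TAM and were not called with EtOH (-0.16 and -0.36). CDH1, the E-cadherin gene, singled out after its values were seen, had 3006, 3503 and 2737 units at 24 h, against 7621, 7649 and 7435 units at 4 h (log2 difference -1.30, SE 0.0897, limma adjusted p = 2.2e-08), against -0.14 on the log2 scale with EtOH and -0.02 in siSTAT3 cells. The groups of all 5 genes were apart. CDH3, the P-cadherin of basal cells, fell by less (-0.60).

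Of 14 measured epithelial transcription and splicing factors 3 fell and 1 rose. GRHL3, a grainyhead factor of barrier formation, had 102, 113 and 82.7 units at 24 h, against 843, 892 and 806 units at 4 h (log2 difference -3.10, SE 0.156, limma adjusted p = 5.6e-10). OVOL1, a zinc finger repressor of mesenchymal genes, had 75.4, 63.2 and 93.5 units at 24 h, against 439, 383 and 346 units at 4 h (log2 difference -2.34, SE 0.189, limma adjusted p = 1.5e-07), and the ETS factor ELF3 had 74.1, 120.3 and 90.7 units at 24 h, against 269.8, 380.2 and 352 units at 4 h (log2 difference -1.83, SE 0.230, limma adjusted p = 2.1e-05). All 24 h arrays lay below all 4 h arrays for these factors. GRHL3 and ELF3 were not called with EtOH (-0.52 and 0.86), whereas OVOL1 fell there too (-1.26). The splicing regulator ESRP1 rose (0.75).

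Of 14 measured keratins 6 fell and none rose (median -0.33), against 1 lower and 1 higher with EtOH. KRT16, a stress keratin of keratinocytes, had 1098, 1259.6 and 1095 units at 24 h, against 3380.2, 3157 and 2738 units at 4 h (log2 difference -1.42, SE 0.150, limma adjusted p = 3.2e-06), and KRT8, of simple epithelia, had 2593, 2789 and 2528 units at 24 h, against 6524, 6725 and 6298 units at 4 h (log2 difference -1.31, SE 0.101, limma adjusted p = 9.0e-08). KRT15, a keratin of basal cells, had 604, 623 and 715 units at 24 h, against 1404, 1600.4 and 1419 units at 4 h (log2 difference -1.19, SE 0.121, limma adjusted p = 2.1e-06), but 4819.7, 4789 and 5719 units at 24 h and 1761, 1366 and 1902 units at 4 h with EtOH. It thus fell with TAM, rose with EtOH (1.62) and rose in siSTAT3 cells with TAM (2.35). KRT75 (-2.72) and KRT80 (-2.40) fell from lower signals.

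Cornification genes that changed with TAM were higher at 24 h. Over all tested genes 4.73% rose and 3.92% fell with TAM. Of 28 measured genes of the cornified envelope and epidermal differentiation 4 rose and none fell (median 0.41), and with EtOH 6 rose and none fell (median 0.64), and in siSTAT3 cells 11 rose and none fell (median 1.37). In the TAM minus EtOH difference 2 were called higher and 2 lower (median -0.29). PI3, the elastase inhibitor elafin, had 3763, 4544 and 2842 units at 24 h, against 716, 727 and 857 units at 4 h (log2 difference 2.26, SE 0.172, limma adjusted p = 7.4e-08), and SPRR1B, a small proline-rich envelope protein, had 524, 599.8 and 421 units at 24 h, against 104, 136 and 143 units at 4 h (log2 difference 2.01, SE 0.177, limma adjusted p = 4.1e-07). Both rose as far with EtOH (2.28 and 2.31), and the differences of -0.02 and -0.30 were not called. SERPINB1, a neutrophil protease inhibitor (1.61), and TGM2, a transglutaminase (1.41), rose with TAM and were not called with EtOH (0.22 and -1.003).

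Among 21 measured mesenchymal genes 8 rose and 3 fell (median 0.22), against 1 and 1 with EtOH. LOX, the lysyl oxidase that crosslinks collagen, had 5782, 5497 and 5607 units at 24 h, against 1872, 1716 and 1817 units at 4 h (log2 difference 1.64, SE 0.0905, limma adjusted p = 1.5e-09). ITGA5, the fibronectin receptor subunit, had 1209.6, 1064 and 1079 units at 24 h, against 534, 429 and 423 units at 4 h (log2 difference 1.28, SE 0.143, limma adjusted p = 5.7e-06), and ZEB2, a repressor of E-cadherin, had 323, 243 and 376 units at 24 h, against 135, 129 and 130.4 units at 4 h (log2 difference 1.23, SE 0.196, limma adjusted p = 2.2e-04). SNAI2 and ZEB1, repressors of the same gene singled out after their values were seen, rose by 0.77 and 0.60 on the log2 scale, and SNAI2 fell with EtOH (-0.66). The other probe sets of ZEB2 were not called (log2 differences -0.76 to 1.73). CDH11, a mesenchymal cadherin, fell (-1.79), so the list did not move in 1 direction. Vimentin (VIM), already abundant, had 17611, 18984 and 17291 units at 24 h, against 15341, 17820 and 14175 units at 4 h and was not called. Beside these stand 3 risers among 10 fibroblast markers, POSTN (2315, 2387 and 2072 units at 24 h, against 735, 678 and 651 units at 4 h), DCN (1.20) and COL1A1 (0.60), with a summed list signal of 10162 to 11590 units at 24 h and 5148 to 5312 units at 4 h. The other probe sets of COL1A1 were not called (log2 differences -0.56 to 0.71). The fibroblast markers LUM (72.1, 67.9 and 38.1 units at 24 h, against 49.2, 45.4 and 47.6 units at 4 h) and PDGFRA (37.4, 50.6 and 36.8 units at 24 h, against 32.6, 43.8 and 34.6 units at 4 h) stayed low and were not called, and any part of other cells in these values was not tested.

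Proteases and matrix proteins changed in both directions. Of 28 measured matrix proteases and inhibitors 5 rose and 3 fell (1 to 3 without 1 TAM array). ADAM19, a membrane metalloprotease, had 2937, 2952 and 3001 units at 24 h, against 202, 194 and 182 units at 4 h (log2 difference 3.94, SE 0.296, limma adjusted p = 6.2e-08), MMP14, the collagenase that activates MMP2, had 1731, 1554 and 1748 units at 24 h, against 522, 529 and 501 units at 4 h (log2 difference 1.70, SE 0.0934, limma adjusted p = 1.5e-09), and CTSL, the lysosomal cathepsin L, had 23942, 24757 and 23923 units at 24 h, against 6658, 7467 and 7129.8 units at 4 h (log2 difference 1.77, SE 0.0913, limma adjusted p = 7.3e-10). SERPINE2, an inhibitor of thrombin and urokinase, rose as well (1.34). These 4 were not called with EtOH, with log2 differences between -0.45 for ADAM19 and 0.27 for CTSL, and each exceeded EtOH by the call rule. Of 26 matrix and adhesion proteins 5 rose and 4 fell. TNC, the matrix glycoprotein tenascin-C, had 9132, 9223 and 10168 units at 24 h, against 2017, 2548 and 2601 units at 4 h (log2 difference 2.000, SE 0.144, limma adjusted p = 3.8e-08), against 263, 256 and 259.7 units at 24 h and 431, 368 and 443 units at 4 h with EtOH. THBS1, the antiangiogenic thrombospondin, had 2591, 2529 and 2639.8 units at 24 h, against 19212, 16289 and 23134 units at 4 h (log2 difference -2.90, SE 0.122, limma adjusted p = 8.5e-11) and fell with EtOH too (-1.79).

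Many targets of YAP and TEAD fell with and without TAM. Of 20 measured targets 12 fell and 1 rose with TAM (median -0.82), and 11 fell and none rose with EtOH (median -0.57). CCN2, the matricellular growth factor CTGF, had 531, 519 and 504 units at 24 h, against 3887, 3585 and 3555 units at 4 h (log2 difference -2.83, SE 0.0898, limma adjusted p = 4.0e-12). CCN1, also known as CYR61, had 3150.4, 3419 and 3488 units at 24 h, against 13081, 15065 and 12162 units at 4 h (log2 difference -1.998, SE 0.157, limma adjusted p = 1.1e-07). CCN1 fell equally with EtOH (-1.97), as did the cardiac ankyrin repeat protein ANKRD1 (-2.33 with TAM and -2.36 with EtOH), while CCN2 fell further with TAM (difference -0.89, adjusted p = 3.8e-04). NT5E, the ectonucleotidase CD73, went up, with 6209, 6317 and 5900.2 units at 24 h, against 1022, 1107 and 1478 units at 4 h (log2 difference 2.37, SE 0.146, limma adjusted p = 6.0e-09), and was not called with EtOH (-0.03).

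Some genes known to be raised by growth factor withdrawal rose in both treatments. Of 16 measured genes in this group 5 rose and 1 fell with TAM (median 0.31), and 4 rose and 1 fell with EtOH (median 0.44). TXNIP, the arrestin that limits glucose uptake, had 5698, 5615 and 6115 units at 24 h, against 927, 804 and 769 units at 4 h (log2 difference 2.81, SE 0.0869, limma adjusted p = 3.4e-12), and 6233, 6150.3 and 7045 units at 24 h and 1446, 1279 and 1438 units at 4 h with EtOH. CCNG2, a cyclin of cell cycle arrest, had 8424, 8229.8 and 7990.3 units at 24 h, against 1273, 1673 and 1188 units at 4 h (log2 difference 2.59, SE 0.106, limma adjusted p = 6.8e-11), and its time change exceeded that with EtOH (difference 1.42). IRS1, the insulin receptor substrate, fell alike in both (-1.16 with TAM and -1.13 with EtOH).

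**Figure D3:**
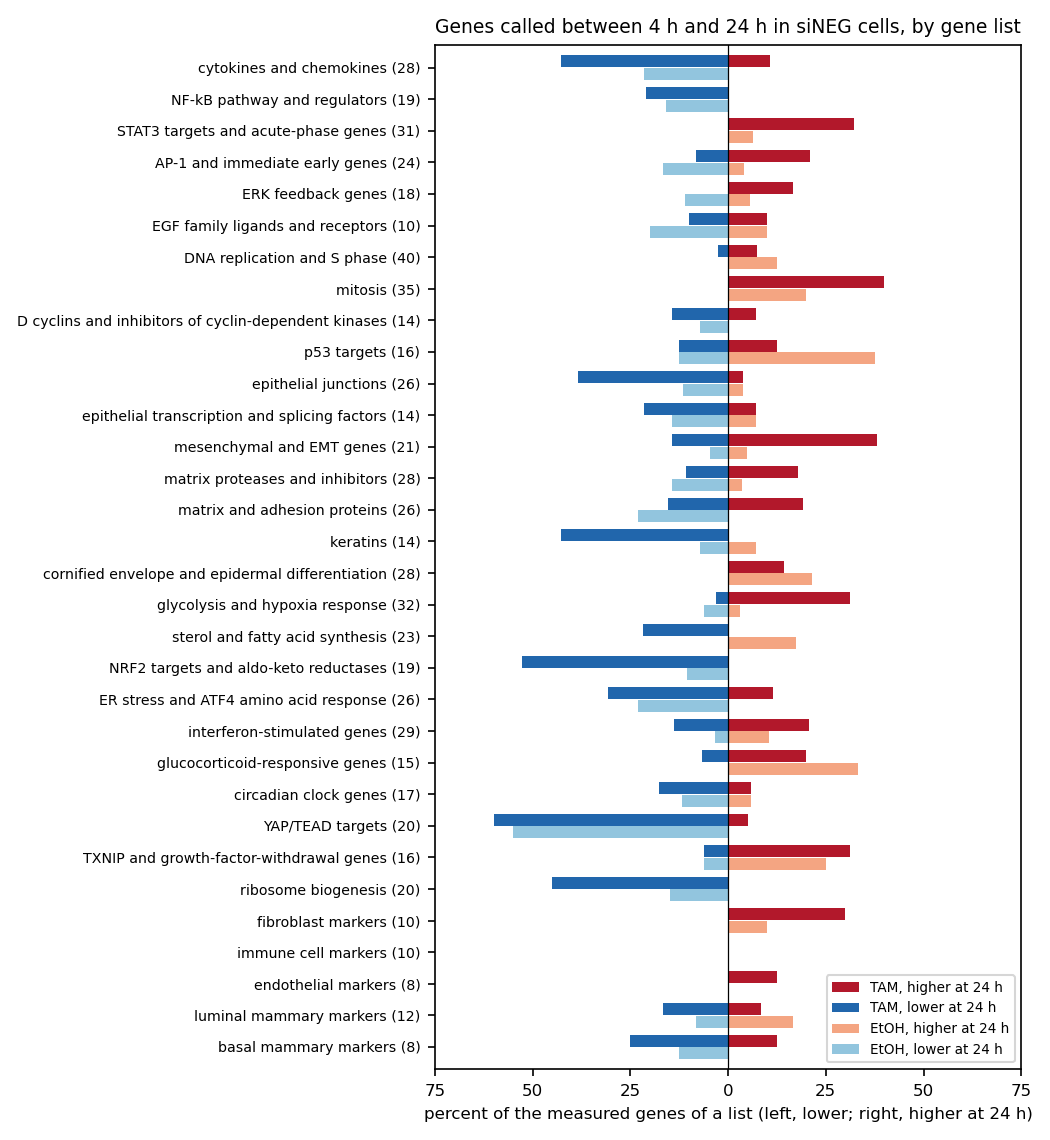
Percent of the measured genes of each of 32 lists (number measured in parentheses) that were called lower (left) or higher (right) at 24 h than at 4 h in siNEG cells, dark bars for TAM and light bars for EtOH. Junctions, keratins and NRF2 targets extend further left with TAM, YAP/TEAD targets extend left in both, and cornification genes extend right in both.

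Metabolic genes divided by pathway. Of 32 measured glycolysis and hypoxia genes 10 rose and 1 fell (median 0.24), against 1 and 2 with EtOH. EGLN3, a prolyl hydroxylase of HIF, had 754, 765 and 628 units at 24 h, against 95.6, 52.1 and 52.8 units at 4 h (log2 difference 3.48, SE 0.282, limma adjusted p = 1.6e-07), SLC2A3, the glucose transporter GLUT3, had 506, 494 and 612 units at 24 h, against 137, 171 and 116 units at 4 h (log2 difference 1.94, SE 0.222, limma adjusted p = 7.8e-06), and PFKFB4, a regulator of phosphofructokinase, had 456, 438 and 428 units at 24 h, against 84.1, 142 and 128 units at 4 h (log2 difference 1.93, SE 0.237, limma adjusted p = 1.6e-05). PFKFB3, its paralog, chosen after its values were seen, had 7320.5, 7296 and 7612 units at 24 h, against 2638, 2735 and 2679 units at 4 h (log2 difference 1.46, SE 0.0851, limma adjusted p = 2.9e-09), and fell with EtOH (-0.68). ENO2, the neuronal enolase, had 117, 148 and 198 units at 24 h, against 13, 3.67 and 4.01 units at 4 h, and from such low 4 h signals its log2 difference of 4.71 has an SE of 0.794.

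Of 19 measured NRF2 targets and aldo-keto reductases 10 fell and none rose (median -0.56), against 2 and none with EtOH. ALDH3A1, an aldehyde dehydrogenase, had 91.4, 110.3 and 106 units at 24 h, against 544, 642 and 558 units at 4 h (log2 difference -2.50, SE 0.147, limma adjusted p = 3.3e-09), against 727, 636 and 839 units at 24 h and 541, 438 and 621 units at 4 h with EtOH. TXNRD1, thioredoxin reductase, had 2459, 2409.5 and 2645 units at 24 h, against 7767, 7567 and 7162 units at 4 h (log2 difference -1.58, SE 0.0888, limma adjusted p = 1.9e-09), and AKR1C2, a ketosteroid reductase with near-identical paralogs that its probe set may not separate, had 3861, 3952 and 3726 units at 24 h, against 8842, 8583 and 8212 units at 4 h (log2 difference -1.15, SE 0.0615, limma adjusted p = 1.1e-09). HMOX1, which degrades heme, fell with both treatments (-1.68 with TAM and -1.47 with EtOH). Of 23 sterol and fatty acid synthesis genes 5 fell and none rose with TAM, whereas 4 rose and none fell with EtOH. The 5 became 1 to 5 without 1 TAM array and 3 with the replicate block, because ACLY and DHCR7 each lost the call in 5 of 6 such fits and INSIG1 in 4. LSS, lanosterol synthase, had 1073, 1134 and 995 units at 24 h, against 2126, 2212 and 1962 units at 4 h (log2 difference -0.98, SE 0.121, limma adjusted p = 1.8e-05), with a difference from EtOH of -1.18 (adjusted p = 4.6e-04).

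Of 26 measured ER stress and ATF4 genes 8 fell and 3 rose, against 6 and none with EtOH. HERPUD1, of ER-associated degradation, had 2753, 2639 and 2816 units at 24 h, against 5861, 6967 and 6069.7 units at 4 h (log2 difference -1.20, SE 0.0860, limma adjusted p = 3.6e-08), and SLC7A5, the leucine transporter LAT1, had 6151, 6234 and 5653 units at 24 h, against 13437, 13383 and 12487 units at 4 h (log2 difference -1.12, SE 0.0801, limma adjusted p = 3.3e-08). HERPUD1 fell alike with EtOH (-1.07), while SLC7A5 was not called there (-0.07). VLDLR, a lipoprotein receptor, rose, with 264, 272 and 269 units at 24 h, against 33.6, 35.6 and 45.6 units at 4 h (log2 difference 2.82, SE 0.166, limma adjusted p = 3.3e-09). Of 29 interferon-stimulated genes 6 rose and 4 fell (median 0.19), against 3 and 1 with EtOH (median 0.21) and 12 and 2 in siSTAT3 cells. In the TAM minus EtOH difference 1 was called higher and 1 lower. ISG20, an exonuclease, had 1401, 1302 and 1463 units at 24 h, against 160.5, 129 and 153 units at 4 h (log2 difference 3.24, SE 0.122, limma adjusted p = 2.4e-11), GBP1, a guanylate-binding protein, had 657, 774 and 766 units at 24 h, against 4716, 4566 and 6052 units at 4 h (log2 difference -2.80, SE 0.142, limma adjusted p = 6.0e-10), and MX1, an antiviral GTPase, had 281, 296 and 275 units at 24 h, against 22, 11.4 and 27.5 units at 4 h. MX1 lost its call in every fit without 1 TAM array, although its adjusted p stayed at or under 0.00769, and GBP1 fell with EtOH too (-2.10). For neither MX1 nor GBP1 was the difference from the EtOH time change called.

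Most of the largest rises lay outside the pathway lists. RHOU, a small GTPase, had 6724, 5793 and 6227 units at 24 h, against 43.7, 60.4 and 54.1 units at 4 h, a 119-fold rise (log2 difference 6.90, SE 0.162, limma adjusted p = 2.2e-13), with 255, 222 and 252 units at 24 h and 84.6, 97.5 and 78.1 units at 4 h of EtOH. RASD1, a Ras family GTPase first described as dexamethasone-induced, had 1571, 1545 and 2101 units at 24 h, against 15.9, 18.7 and 19.1 units at 4 h (log2 difference 6.59, SE 0.385, limma adjusted p = 3.1e-09), and its EtOH arrays held 23, 11.5 and 10.8 units at 24 h and 9.91, 21.7 and 11.9 units at 4 h. GZMB, the serine protease granzyme B of cytotoxic lymphocytes, had 1541, 1493 and 1522 units at 24 h, against 18, 16.2 and 16.5 units at 4 h (log2 difference 6.49, SE 0.684, limma adjusted p = 3.1e-06). With EtOH GZMB held 7.08, 6.74 and 10.2 units at 24 h and 39.2, 29.5 and 5.9 units at 4 h. In siSTAT3 cells with TAM it held 20.1 and 46.9 units at 24 h and 5.38, 24.8 and 6.37 units at 4 h. RASD1 and GZMB were thus below 100 units on each of these arrays but those of siNEG cells at 24 h of TAM. The siNEG minus siSTAT3 difference of the TAM time change was called for RASD1 (6.77) and not for GZMB.

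The ectonucleotidase ENTPD3 had 1402, 2144 and 1556 units at 24 h, against 37.4, 20.6 and 33.4 units at 4 h (log2 difference 5.82, SE 0.440, limma adjusted p = 6.8e-08). CHRNA9, a nicotinic receptor subunit, had 1601, 1687 and 1495 units at 24 h, against 57.1, 44.2 and 67.7 units at 4 h (log2 difference 4.84, SE 0.222, limma adjusted p = 2.1e-10), and LINC00520, a long noncoding RNA, had 3139, 2621 and 3129 units at 24 h, against 74.7, 109 and 104 units at 4 h (log2 difference 4.96, SE 0.328, limma adjusted p = 1.3e-08). CLEC2B, a C-type lectin, started higher, with 24034, 25664 and 24106 units at 24 h, against 1460.3, 1387 and 1304 units at 4 h (log2 difference 4.15, SE 0.135, limma adjusted p = 4.0e-12), against 816, 597 and 702 units at 24 h and 428, 394 and 442 units at 4 h of EtOH. All 4 were apart between times on every array, and all 4 exceeded EtOH by the call rule.

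PAEP, the secreted lipocalin glycodelin, had 184, 132 and 175 units at 24 h, against 4.83, 12.8 and 3.81 units at 4 h (log2 difference 4.71, SE 0.682, limma adjusted p = 9.0e-05), and EtOH arrays of 2.75, 4.76 and 2.76 units at 24 h and 4.4, 3.91 and 3.67 units at 4 h. Its 4 h signals of a few units make the fold imprecise. The same holds for the angiopoietin receptor TEK (119, 169 and 210.2 units at 24 h, against 5.22, 3.16 and 4.34 units at 4 h), the only endothelial marker of 8 that was called, while VWF stayed at 7.41, 40.5 and 7.01 units at 24 h, against 37.5, 10.3 and 9.68 units at 4 h. The PAEP promoter (chr9:135561506-135561805, plus strand, GRCh38.p14) holds an AP-1 match (TGANTCA) from base -95 and a STAT match (TTCNNNGAA) from base -84, both in capitals.
PAEP: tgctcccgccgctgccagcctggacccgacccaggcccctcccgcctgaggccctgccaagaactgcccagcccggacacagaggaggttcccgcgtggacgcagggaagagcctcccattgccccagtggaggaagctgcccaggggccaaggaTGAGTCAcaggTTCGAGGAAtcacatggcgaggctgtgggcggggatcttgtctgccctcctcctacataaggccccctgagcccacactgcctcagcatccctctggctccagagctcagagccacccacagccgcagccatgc

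Among the genes that fell furthest and are on no list, NHS, the gene of Nance-Horan syndrome with a role in actin remodelling, had 67.7, 60.7 and 55.6 units at 24 h, against 869, 811 and 828 units at 4 h (log2 difference -3.77, SE 0.103, limma adjusted p = 6.2e-13), and ALDH1A3, a retinaldehyde dehydrogenase, had 888, 1180.1 and 973 units at 24 h, against 11709, 12396 and 11388 units at 4 h (log2 difference -3.55, SE 0.163, limma adjusted p = 2.1e-10). FGFBP1, a carrier that releases fibroblast growth factors from the matrix, had 1542, 2022 and 1358 units at 24 h, against 8724, 10129 and 9115 units at 4 h (log2 difference -2.52, SE 0.131, limma adjusted p = 7.9e-10). NHS and ALDH1A3 fell with EtOH also (-1.78 and -2.25), and FGFBP1 was not called there (-0.19). DLX2, a homeobox factor, fell with TAM (-3.09) and with EtOH (-3.94).

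Several of these genes took another course in siSTAT3 cells. Of the TAM risers in siNEG cells and those in siSTAT3 cells, which share no arrays, 331 were common, 35.4% of the siNEG list and 49.3% of the siSTAT3 list. Of the genes that fell 249 were common, 32.1% and 69.4% of the lists. Called in opposite directions were 9 genes that rose in siNEG cells and 8 that fell. RASD1 had 26.4 and 30.5 units at 24 h and 60.9, 22.9 and 23.7 units at 4 h in siSTAT3 cells, without a call there (log2 difference -0.18), and the siRNAs differed (difference 6.77, SE 0.577, limma adjusted p = 3.6e-06). PAEP stayed at 3.14 and 2.99 units at 24 h and 4.28, 4 and 5.89 units at 4 h (difference 5.32, adjusted p = 0.006). RHOU rose in siSTAT3 cells too, with 277 and 220.2 units at 24 h and 87, 55.9 and 67.8 units at 4 h, but by less (difference 5.06, adjusted p = 2.0e-08).

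In the other direction KRT15 had 7616 and 8572 units at 24 h and 1722, 1649.7 and 1408 units at 4 h in siSTAT3 cells, and FGFBP1 had 7663 and 9061 units and 8146, 8037 and 7018 units at these times, while both RNAs fell in siNEG cells (differences -3.54 and -2.63). TNC rose in siNEG cells and fell in siSTAT3 cells (2.000 and -0.87, difference 2.87), and IGFBP3, an insulin-like growth factor binding protein, fell in siNEG cells and was not called in siSTAT3 cells (-2.95 and 0.35, difference -3.30). ATF3, a stress-induced AP-1 partner, and PFKFB3, both singled out after their values were seen, rose in siNEG cells (0.76 and 1.46) and fell in siSTAT3 cells (-1.17 and -0.53). IL6 fell in both, with 99.5 and 124 units at 24 h and 303, 459.7 and 406 units at 4 h in siSTAT3 cells, and the difference of -1.996 was not called (limma adjusted p = 0.0091). POSTN, a matrix protein of the periodontium and of fibroblasts, rose further in siSTAT3 cells (1.71 in siNEG and 2.35 in siSTAT3 cells, difference -0.64). The siSTAT3 values at 24 h rest on 2 arrays, and without replicate 3 the difference counts were lower (162 downward calls in place of 261).

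**Figure D4:**
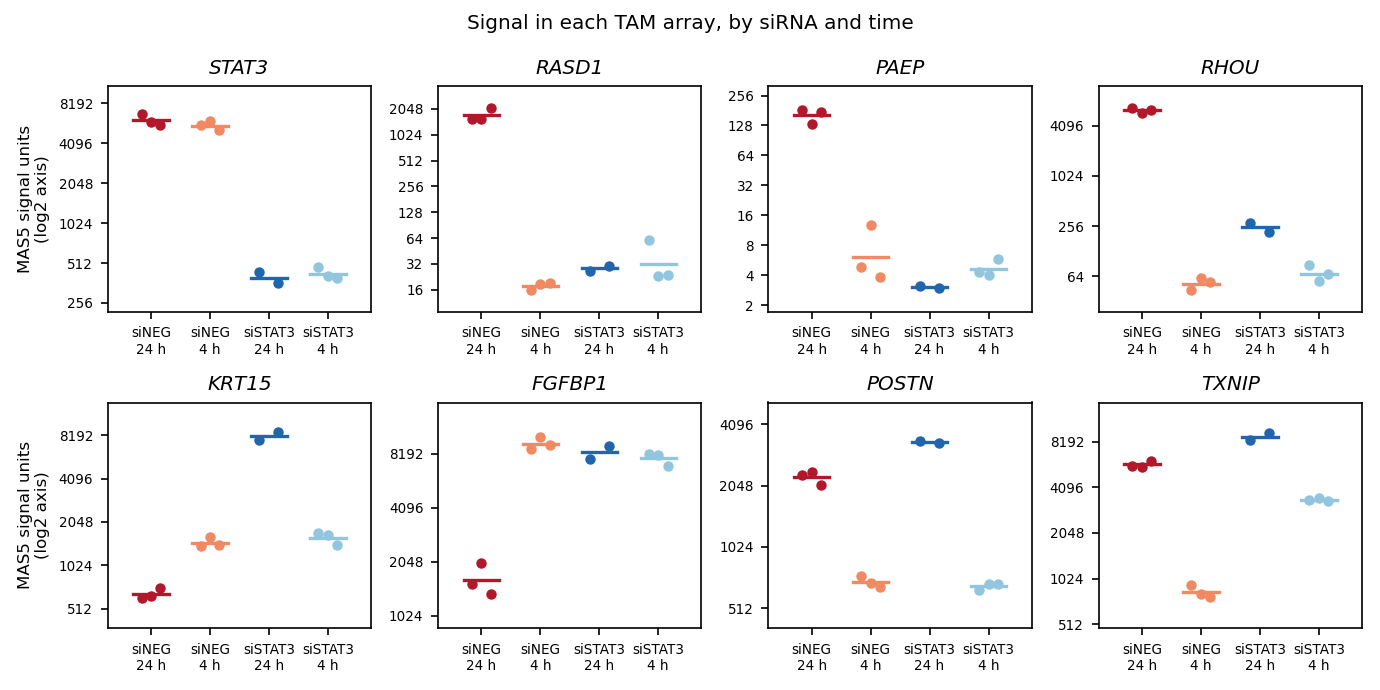
MAS5 signal (log2 axis, units) of 8 genes on each TAM array, in the order siNEG 24 h, siNEG 4 h, siSTAT3 24 h and siSTAT3 4 h, with arrays as points and the geometric mean as a bar. RASD1 and PAEP are high only in siNEG cells at 24 h, FGFBP1 is low only there, KRT15 is lowest there and highest in siSTAT3 cells at 24 h, and POSTN and TXNIP are higher at 24 h with both siRNAs.

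Promoter letters were counted for 10 short motifs in RefSeq windows of 250 bases before to 50 after each start, on both strands. The motifs and the gene sets were chosen after the calls were known, a form of the NF-κB motif 1 base longer was searched before the one used, and no test was made. Of 15384 tested genes with a window, 753 had risen and 632 had fallen. The STAT motif stood in 6.95% of the tested windows, in 8.10% of those of risers and in 6.65% of those of genes that fell. AP-1 (TGANTCA) gave 6.11% of risers and 5.85% of the genes that fell, beside 5.84% of all tested, and NF-κB (GGNNTTTCC) gave 5.98% and 8.07%, beside 6.47%. Of risers whose difference from EtOH was also called higher, 202 had a window, with AP-1 in 12.4% and NF-κB in 7.43%. Of genes that fell with that difference called lower, 126 had a window, with AP-1 in 5.56% and NF-κB in 10.3%. The E-box CACGTG was in 13.9% of windows of genes that fell, 9.30% of risers and 8.90% of all tested. TTTGAA was in 15.4% of risers, 7.12% of those that fell and 11.9% of all tested. Within lists, TTTGAA was in 62.1% of 29 mitosis windows, GGNNTTTCC in 47.6% of 21 cytokine windows and CACGTG in 50.0% of 16 ribosome biogenesis windows. The E2F motifs TTTCCCGC and TTTGGCGC, which may overlap other motifs as all of these may, were in 4.38% of risers, 2.37% of those that fell and 2.99% of all tested. CCAAT was in 35.7%, 37.7% and 36.1% of these sets, the TEAD motif GGAATG in 10.2%, 12.2% and 11.9%, the CRE TGACGTCA in 2.52%, 2.85% and 2.67%, and the D-box TTATGTAA in 0.266%, 0.158% and 0.592%.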

How the data were processed

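RNA of MCF10A-ER-Src cells was measured on Affymetrix Human Genome U133 Plus 2.0 arrays. The deposited values are MAS5 intensity values on a linear scale, 1 per probe set, which the authors had background corrected, normalized and summarised. The trimmed mean (2% left out at each end) is 500 units on all 23 arrays, so the values are relative within an array. Here they were log2 transformed with nothing added, and limma 3.58.1 (R 4.3.3) was fitted with 1 mean per group to all 23 arrays (15 residual and 1.27 prior degrees of freedom), with Benjamini-Hochberg adjustment over 54675 probe sets. The call rule follows the thresholds in the study's methods. Of the probe sets 41097 had 1 gene symbol, 1801 several and 11777 none, and 54 symbols without a match in the RefSeq table were kept. A gene (19775 in all) was read from the brightest of its probe sets by mean log2 signal over all arrays. Of 82 called named genes with several probe sets, 24 had all probe sets called alike and 0 had a probe set called the other way.

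Named genes were the 15 highest and 15 lowest called log2 differences with at least 100 units in a group and no overlap, the 8 highest and 8 lowest for each difference from EtOH and siSTAT3, the 4 largest called members of each list, the genes that the study's text names, and the 8 largest falls from above 1000 units. Members, lists and tests were chosen with earlier results of these data known. The methods speak of biological replicates, but the labels do not say that arrays came from separate cultures, so p-values measure the spread between these arrays. The fits were tested on simulated data. Alternatives were low-signal filters, an added 16 units, other scalings, other priors, fewer arrays, other call rules, other probe sets, a replicate block and leaving out each array. Lists name only genes with a probe set of 1 symbol, and others were not analysed here.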

Additional observations from a re-analysis of the deposited data

Results flagged for a closer look

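The time change with TAM was tested against the time change with EtOH, and the test picked out 309 genes upward (1.56% of those tested) and 224 downward (1.13%). The named genes were chosen partly by this same difference and by the size of their change, so a count among them is largely set by that choice. Of the 147 genes named here, 43 differed upward and 28 downward, and the values are log2 differences of the TAM minus the EtOH time change in siNEG cells. In 17 of these genes, namely GZMB, RASD1, IL33, ENTPD3, RHOU, CRP, OLFM4, PAEP, ADAM19, CHRNA9, EGLN3, VLDLR, SOCS1, CGN, CRISPLD2, NHS and ELAPOR1, at least 1 of the groups compared averaged under 73.5 units, the lowest array median, so their values rest on signals near the low end of the scale and their order among themselves was not tested. Upward, the values were those of GZMB 7.76, RASD1 6.54, IL33 6.20, ENTPD3 6.09, RHOU 5.41, CRP 5.13, OLFM4 5.13, PAEP 4.98 and LINC00520 4.96. Also upward stood ADAM19 4.39, CHRNA9 4.17, FGL1 3.59, CLEC2B 3.42, ISG20 2.82, EGLN3 2.69, TNC 2.67, VLDLR 2.55 and TGM2 2.41. Between them and the middle of the range came NT5E 2.40, PFKFB3 2.14, SOCS1 2.02, KLF9 1.93, SERPINE2 1.73, SLC2A3 1.61, LOX 1.58, SERPINA3 1.57 and MMP14 1.51. A smaller excess with TAM was measured for CTSL 1.502, ITGA5 1.48, ZEB2 1.44, SNAI2 1.43, ATF3 1.43, CCNG2 1.42, BMAL2 1.40, SERPINB1 1.39 and DUSP6 1.30. The differences nearest to 0 on this side were POSTN 1.22, DUSP4 1.12, EGR1 1.03, FOS 0.84, ZEB1 0.83, KIF14 0.83 and ITGB4 0.62. Downward, the values were ELAPOR1 -3.59, ALDH3A1 -2.97, CLDN1 -2.86, KRT15 -2.81, IL6 -2.70, ELF3 -2.69, GRHL3 -2.58, FGFBP1 -2.33 and NHS -1.99. After these came PPL -1.66, OCLN -1.56, CRISPLD2 -1.36, KRT8 -1.32, CGN -1.31, ALDH1A3 -1.30, TNFAIP2 -1.28, KRT16 -1.21 and LSS -1.18. Smaller shortfalls with TAM were measured for CDH1 -1.16, LIF -1.12, THBS1 -1.11, AKR1C2 -1.07, SLC7A5 -1.05, CCN2 -0.89, KLF4 -0.85, INSIG1 -0.78, CAV1 -0.75 and CCND2 -0.59.

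The time change with TAM also differed between siRNAs, with 213 genes upward (1.08% of those tested) and 261 downward (1.32%) in siNEG minus siSTAT3 cells. Among the 147 named genes 31 differed upward and 31 downward, counts that are again set partly by the choice of genes. A group mean lay under 73.5 units for 14 of them, whose values rest on such signals too, namely RASD1, TEK, OLFM4, PAEP, RHOU, RHOH, CHRNA9, ENTPD3, LINC00520, VLDLR, NHS, CGN, MYPN and STEAP4. In favour of siNEG cells the log2 differences were RASD1 6.77, TEK 5.98, OLFM4 5.61, PAEP 5.32, RHOU 5.06, RHOH 4.37, CHRNA9 3.82, ENTPD3 3.69 and LINC00520 3.50. Following these were TNC 2.87, ADAM19 2.72, FGL1 2.52, CLEC2B 2.16, PFKFB3 2.00, ATF3 1.93, SERPINA3 1.77, EGR1 1.61 and VLDLR 1.55. Intermediate values were found for ITGA5 1.53, TXNIP 1.42, SERPINE2 1.42, ISG20 1.41, CTSL 1.41, LOX 1.34, NT5E 1.25, CCNG2 1.24 and DCN 1.05. The smallest of these differences were MMP14 0.94, FOS 0.87, PLK2 0.66 and DUSP4 0.59. In the opposite sense the log2 differences were COXFA4L3 -4.03, STEAP4 -3.55, KRT15 -3.54, MYPN -3.53, IGFBP3 -3.30, ELF3 -3.25, CLDN1 -2.71, FGFBP1 -2.63 and GRHL3 -2.62. To these were added ALDH1A3 -2.44, CGN -2.40, KRT80 -2.14, THBS1 -1.85, PPL -1.62, OCLN -1.61, LSS -1.59, NHS -1.57 and ALDH3A1 -1.47. Lower in size were those of KRT8 -1.45, CCN1 -1.41, CDH1 -1.28, CCN2 -1.25, IL1B -1.23, TNFAIP2 -1.22, KLF4 -1.14, CCND2 -1.02 and SLC7A5 -0.99. The rest were ACLY -0.89, POSTN -0.64, TP53I3 -0.56 and AKR1C2 -0.52. COXFA4L3, of the mitochondrial respiratory chain family, and STEAP4, a metalloreductase, rose in siSTAT3 cells and were not called in siNEG cells. The siSTAT3 group at 24 h holds 2 arrays, and no explanation of these differences was tested.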

How the results depend on the processing

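Over all genes, the higher and lower counts stayed within 1.5 times their main value under a low-signal filter, 16 added units, quantile or median scaling, a trended robust prior, any probe set of a gene and the replicate block, and no named gene reversed under any setting. With only the arrays compared in the fit, which leaves fewer degrees of freedom, TAM 24 h against 4 h in siNEG gave 204 higher and 123 lower calls, EtOH gave 28 and 47, the TAM minus EtOH difference 171 and 89, TAM in siSTAT3 23 and 15, and the siNEG minus siSTAT3 difference 92 and 83. With an adjusted p under 0.05 and no limit on the fold, the same 5 pairs of counts were 2232 and 1949, 1348 and 1092, 587 and 518, 1795 and 1018, and 421 and 585. Leaving out 1 array in turn gave 758 to 825 higher and 657 to 696 lower calls for TAM in siNEG, 297 to 321 and 305 to 346 for EtOH, 245 to 276 and 162 to 196 for the TAM minus EtOH difference, 379 to 583 and 231 to 317 for TAM in siSTAT3, and 142 to 192 and 162 to 235 for the siNEG minus siSTAT3 difference. The siSTAT3 counts fell most without replicate 2 (418 higher) or replicate 3 (379 higher and 231 lower) of siSTAT3 TAM 24 h, where the lone array left was assumed to vary like the other groups. Counts within the small lists moved further. With any probe set, 5 ERK feedback genes rose in place of 3, 2 STAT3 targets fell in place of none, 3 replication genes fell in place of 1, 7 interferon-stimulated genes fell in place of 4 and 2 clock genes rose in place of 1. With median scaling no junction gene rose in place of 1, 1 ER stress gene rose in place of 3 and 2 replication genes fell. The cause was not tested.

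With the replicate number as a block, TAM in siNEG gave 901 higher and 739 lower calls, and ACLY, CDT1, CIART, DHCR7 and XPC lost theirs. Deviations of same-numbered TAM arrays correlated at 0.0325, -0.00537 and 0.101, and those of EtOH arrays at 0.113, 0.108 and 0.0127. Of the 6 TAM arrays 2 correlated best with their own number. With 3 arrays a group these values cannot decide whether same-numbered arrays were paired, and the labels do not say. Without 1 TAM array 126 named genes kept their call in all 6 fits and 18 lost it in 1 or more, with adjusted p of 0.00818 or less. These 18 were ACLY, CCL2, CD83, CDT1, CIART, DHCR7, ENO2, INSIG1, LRG1, MX1, NFKB1, NPAS2, NRG1, PHLDA3, SMAD6, TGM2, XPC and ZEB2, of which CIART, MX1, NFKB1 and XPC lost it without any of the 6 arrays. With 3 arrays a group, precision is limited by their number, and signals of a few units at 4 h make the folds of CRP, ENO2, PAEP, PPBP and TEK imprecise. Those of GZMB, IL33 and RASD1 also rest on group means under the array medians.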

Other observations

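Circadian clock genes, read on 17 measured members, gave 1 higher and 3 lower calls between 24 h and 4 h of TAM (1 or 2 lower without 1 TAM array). CRY1, a clock repressor, had 962, 935 and 902 units at 24 h, against 1881, 1844 and 1863 units at 4 h (log2 difference -0.998, SE 0.0869, limma adjusted p = 3.6e-07), with no overlap between the times, and fell with EtOH too (-0.71). BMAL2, a partner of CLOCK, had 2469, 2479 and 2427 units at 24 h, against 999, 886 and 1050.5 units at 4 h (log2 difference 1.33, SE 0.125, limma adjusted p = 8.5e-07), while with EtOH it held 634, 489.5 and 533 units at 24 h and 518, 642 and 573 units at 4 h. CIART (-0.75) and NPAS2 (-1.08) were the others that fell.

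Glucocorticoid-responsive genes were of interest because the medium holds hydrocortisone, and 3 of 15 rose and 1 fell (2 with quantile and 3 with median scaling), against 5 and none with EtOH. In the TAM minus EtOH difference 1 gene of the list was called higher and 4 lower (median -0.32). KLF9, a Krüppel-like factor induced by the hormone, was the higher one. It had 1350.5, 1134 and 1415 units at 24 h, against 146, 145 and 172 units at 4 h (log2 difference 3.07, SE 0.199, limma adjusted p = 1.1e-08), and its time change exceeded that with EtOH (difference 1.93, limma adjusted p = 5.1e-04). TSC22D3, the leucine zipper GILZ, rose alike in both (1.41 with TAM and 1.73 with EtOH), as did ZBTB16 (1.13 and 1.59). CRISPLD2, a secreted protein, had 90.7, 63.3 and 72.2 units at 24 h, against 278, 262 and 195 units at 4 h (log2 difference -1.70, SE 0.187, limma adjusted p = 5.0e-06) and was not called with EtOH (-0.34). Of 16 measured p53 targets 2 rose (TP53I3, 0.55, and the repair gene XPC, 0.52) and 2 fell (PHLDA3, -0.99, and the kinase PLK2, -0.76), against 6 and 2 with EtOH. Median scaling gave none and 4 of these p53 calls, and every fit without 1 TAM array left 1 higher. Of 10 EGF family ligands and receptors the ligand NRG1 fell (-1.52) and the receptor ERBB3 rose (0.92), the same directions as with EtOH (-1.11, not called, and 1.06).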
